A study of Homo sapiens with 5 samples.

Results

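CDK6, CCND3, CCND2 and CDK4 encode the kinases and the D-type cyclins that drive cells out of G1, and the peaks around these 4 genes were examined in MOLT-4 cells. All libraries came from cultured MOLT-4, a widely used cell line of human T cell acute lymphoblastic leukaemia (T-ALL). CUT&RUN was used, in which an antibody tethers a micrococcal nuclease fusion protein to its target and the released fragments are sequenced as read pairs. The study holds 1 library each for H3K4me3, for RUNX1 and for a target labelled SMA4, which the labels do not spell out, and 2 IgG controls. No peak list of the IgG controls was used here.

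Members were the deposited peaks that shared at least 1 bp with 1 of 4 windows in hg19. These were chromosome 7 from 92.2 to 92.55 Mb for CDK6, chromosome 6 from 41.88 to 42.04 Mb for CCND3, chromosome 12 from 4.33 to 4.43 Mb for CCND2 and chromosome 12 from 58.13 to 58.16 Mb for CDK4. The windows held 93 of the 51455 peaks in the lists of H3K4me3, RUNX1 and SMA4. By list these were 17 of 13199 for H3K4me3, 73 of 36777 for RUNX1 and 3 of 1479 for SMA4. The genes were chosen by peak positions and by H3K4me3 peak width at CDK6 in these same lists, so peak numbers, overlaps and widths in the windows are descriptions without a test. A window also holds sequence of neighbouring genes. An hg19 annotation was not used here, so a peak is tied to a window and not to a gene, except at CDK6, where the start of the gene near 92.46 Mb and its minus strand were given with the window.

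CDK4 and CDK6 are related kinases that are active when bound to a D-type cyclin, and the complex phosphorylates the retinoblastoma protein, which releases E2F factors and opens the way into S phase. CDK6 is the prominent member in blood cells, and mice without it have a small thymus. Cyclin D3 is needed in mice for the burst of division of immature thymocytes after pre-T cell receptor signalling, and CCND2 is joined to T cell receptor loci by translocation in some T-ALL. H3K4me3 marks active and poised promoters, and RUNX1 is the DNA-binding partner of CBFB, required in the blood lineage and in developing T cells.

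Promoter sequences are shown because H3K4me3 is a mark of gene starts. RefSeq promoters of GRCh38.p14, from 250 bases before to 50 after a start, were found for 3 of the 4 genes, with 2 starts for CDK6, 3 for CCND3 and 1 for CDK4. Of these, 5 are printed, namely both CDK6 starts, the first pair of CCND3 starts and the CDK4 start. Capitals mark GC boxes (GGGCGG), E boxes (CACGTG) and 1 form of the ETS core (CCGGAA) on either strand.
CDK6 start 1, chr7:92836524-92836823, minus strand: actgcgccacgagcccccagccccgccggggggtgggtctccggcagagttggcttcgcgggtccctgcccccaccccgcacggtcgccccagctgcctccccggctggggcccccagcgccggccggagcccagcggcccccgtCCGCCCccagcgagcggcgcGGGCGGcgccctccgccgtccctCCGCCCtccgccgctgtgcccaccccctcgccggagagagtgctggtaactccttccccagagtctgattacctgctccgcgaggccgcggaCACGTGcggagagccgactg
CDK6 start 2, chr7:92833910-92834209, minus strand: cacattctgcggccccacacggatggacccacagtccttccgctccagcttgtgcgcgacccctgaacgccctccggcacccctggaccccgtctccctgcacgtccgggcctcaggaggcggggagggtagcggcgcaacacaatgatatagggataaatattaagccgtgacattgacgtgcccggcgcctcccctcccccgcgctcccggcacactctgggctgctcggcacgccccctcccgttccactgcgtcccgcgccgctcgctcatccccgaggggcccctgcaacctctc
CCND3 start 1, chr6:42048639-42048938, minus strand: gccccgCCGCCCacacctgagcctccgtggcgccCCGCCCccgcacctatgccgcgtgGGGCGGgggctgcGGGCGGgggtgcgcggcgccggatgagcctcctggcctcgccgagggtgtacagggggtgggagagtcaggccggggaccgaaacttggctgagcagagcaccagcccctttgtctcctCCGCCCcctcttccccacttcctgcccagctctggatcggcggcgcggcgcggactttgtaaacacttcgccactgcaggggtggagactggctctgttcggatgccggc
CCND3 start 2, chr6:41941759-41942058, minus strand: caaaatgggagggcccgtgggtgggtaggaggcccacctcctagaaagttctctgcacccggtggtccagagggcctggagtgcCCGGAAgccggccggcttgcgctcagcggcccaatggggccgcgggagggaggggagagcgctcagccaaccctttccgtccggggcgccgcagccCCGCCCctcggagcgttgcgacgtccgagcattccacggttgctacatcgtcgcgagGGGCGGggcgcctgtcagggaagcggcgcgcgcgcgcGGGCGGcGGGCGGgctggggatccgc
CDK4 start 1, chr12:57752261-57752560, minus strand: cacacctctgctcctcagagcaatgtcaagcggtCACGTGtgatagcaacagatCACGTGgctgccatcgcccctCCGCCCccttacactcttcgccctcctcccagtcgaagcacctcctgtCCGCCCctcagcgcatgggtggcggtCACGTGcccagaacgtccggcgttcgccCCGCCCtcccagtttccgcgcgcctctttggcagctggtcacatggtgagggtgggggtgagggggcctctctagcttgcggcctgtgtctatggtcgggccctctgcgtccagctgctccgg

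The printed promoters held more CpG, the dinucleotide of CpG-island promoters, than the median promoter. CDK6 start 1 and CCND3 start 2 had 37 CpG each, CDK6 start 2 and CCND3 start 1 had 29 each and the CDK4 start had 23, against a median of 14 over all 35116 promoters in the table. The third CCND3 start, not printed, had 3. The CDK4 promoter held 3 E boxes, the letters bound by MYC and related factors, in its 300 bases, and 0.0940% of all promoters held at least as many. CDK6 start 1 held 1 E box, as 7.26% of all promoters held at least 1. GC boxes, the letters bound by SP1, numbered 5 at CCND3 start 1, 4 at CCND3 start 2 and 3 each at CDK6 start 1 and CDK4, against 0 at CDK6 start 2 and CCND3 start 3. At least 1 was present in 45.0% of all promoters, at least 3 in 15.8%, at least 4 in 9.06% and at least 5 in 5.14%. The ETS letters CCGGAA were present at CCND3 start 2 (1 match) and in 17.2% of all promoters. Other forms of the ETS core were not searched for, so a promoter without CCGGAA may still hold one. The RUNX core TGTGGT was searched for on both strands and had 0 matches in the 6 member promoters, and 13.1% of all promoters held it. A count of 6 promoters is too small to set against that share. No 2 matches overlapped in the member promoters. Peaks of the files were not placed on these sequences, because the files use hg19.

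At CDK6 the widest H3K4me3 peak of the whole list lay over the start of the gene. It ran from 92459580 to 92468425 on chromosome 7 and was 8846 bp wide, against 6996 bp for the second of the list and 938 bp for the list median. The 2 CDK6 starts of the RefSeq table are 2614 bp apart in GRCh38.p14, a shorter distance than the width of this peak. A narrow H3K4me3 peak of 179 bp, the minimum width of the list, followed 777 bp further upstream, from 92469203 to 92469381. The third H3K4me3 peak of the window, from 92218145 to 92219918 (1774 bp), lay 239.7 kb away on the side of the gene body, near the window's lower end. FAM133B is the nearest protein-coding gene on that side in the RefSeq table, and to which gene this peak belongs was not tested. Between it and the domain no H3K4me3 peak was called.

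**Figure D1:**
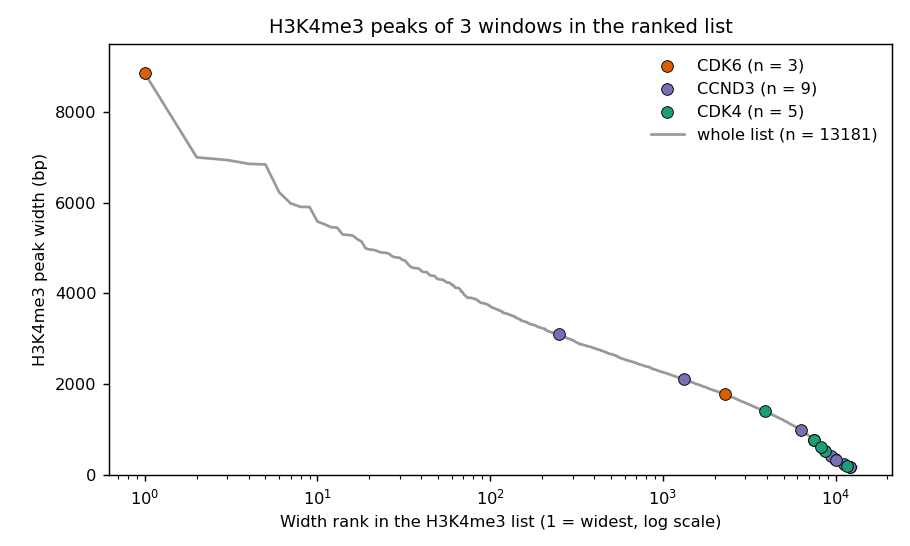
Width in bp (vertical axis) of each H3K4me3 peak in the CDK6, CCND3 and CDK4 windows (points) against its width rank in the list (horizontal axis, log scale), with the whole ranked list as a line. The CDK6 peak of 8846 bp is at rank 1, the widest CCND3 peak (3095 bp) at rank 249 and the widest CDK4 peak (1404 bp) at rank 3917; the CCND2 window has no point.

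RUNX1 peaks covered parts of the CDK6 domain. The domain overlapped 5 RUNX1 peaks. The first, from 92459762 to 92460339 (578 bp), lay at its gene-body edge. The wide peaks from 92461592 to 92463593 (2002 bp) and from 92464013 to 92465629 (1617 bp) filled its middle, and the narrow ones from 92465810 to 92466220 (411 bp) and from 92466407 to 92466649 (243 bp) followed upstream. Together they covered 4851 bp, or 54.8% of the domain. Among the 100 widest H3K4me3 peaks, all of which overlapped RUNX1, the median number of RUNX1 peaks was 2 and the median share covered was 71.3%. Only 3 of the 100, this one included, overlapped 5 RUNX1 peaks, the highest number among them, and 19 had a smaller share under RUNX1.

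RUNX1 peaks were dense along the CDK6 window and most lay away from H3K4me3. The window held 47 RUNX1 peaks in 350 kb, or 13.4 per 100 kb, against 1.21 per 100 kb over the whole list. They covered 9.47% of the window, against 0.962% of the genome spanned by the lists. When chromosomes were divided into 8676 tiles of 350 kb on a fixed grid, the median tile held 2 RUNX1 peaks, and 1 tile, on chromosome 17, held at least 47 (0.0115% of tiles). The grid splits loci where it falls, whereas the CDK6 window was fitted to its locus, so this places the value and is no test. Of the 47 peaks, 6 overlapped H3K4me3 (12.8%, 95% Wilson interval 5.98 to 25.2%), against 32.2% of the RUNX1 list. These were the 5 peaks of the domain and a peak from 92218956 to 92219980 (1025 bp) at the far H3K4me3 peak. Intervals cover counting error only, and neighbouring peaks of 1 library are not independent.

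Most RUNX1 peaks at CDK6 were on the side of the gene body. That side, 259.6 kb from the domain to the window's end, held 39 peaks (15.0 per 100 kb). The upstream side of 81.6 kb held 3 (3.68 per 100 kb), at 1.26, 38.2 and 65.1 kb from the domain. The peaks came in groups with empty stretches between them. Of the 46 gaps between neighbours, 25 were under 1 kb, and the median gap was 0.831 kb, against 17.8 kb over the list. The longest stretches without a RUNX1 peak were 61.4 kb, from 92321459 to 92382882, and 39.8 kb, from 92399284 to 92439116.

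Joined at gaps of up to 10 kb, the CDK6 peaks formed 3 large groups that held 43 of the 47, and 4 single peaks. The group farthest from the start ran from 92250254 to 92288652, held 19 RUNX1 peaks with 13.2 kb in peaks, and overlapped no H3K4me3 peak. It ranked 43 by bases and 12 by number of peaks among the 21979 RUNX1 regions of the list. The middle group, from 92382883 to 92399283, held 10 peaks with 6.50 kb in peaks, again without H3K4me3, and ranked 288 by bases. The group at the start, from 92439117 to 92469984, held 14 peaks with 10.9 kb in peaks and ranked 79 by bases. It contained the H3K4me3 domain and the narrow peak beside it. Regions of 10 or more peaks were uncommon, with 111 in the list, and they held 4.15% of all RUNX1 peaks.

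**Figure D2:**
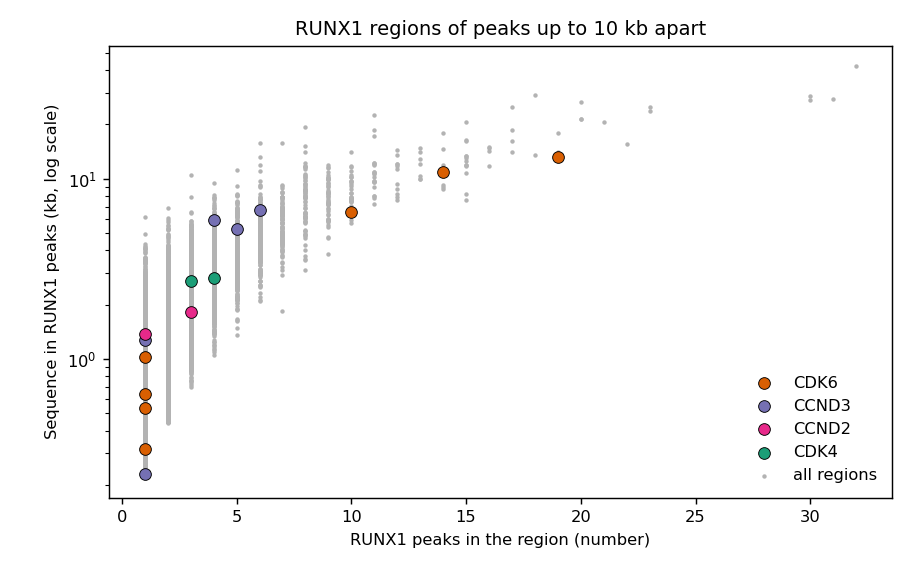
Each point is a region of RUNX1 peaks up to 10 kb apart, by number of peaks (horizontal axis) and kb of sequence in peaks (vertical axis, log scale); regions of the 4 windows are coloured and all regions are grey. The 3 large CDK6 regions, with 10, 14 and 19 peaks, lie to the right of all CCND3, CCND2 and CDK4 regions, which have 6 peaks or fewer.

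Of the 3 widest RUNX1 peaks of the window, 1 was in the middle group and 2 were in the group at the start. The widest, from 92383676 to 92386165 (2490 bp, rank 646 of 36736), was in the middle group. The second, from 92442057 to 92444123 (2067 bp), lay 15.5 kb from the edge of the domain on the gene-body side, and the third was the 2002 bp peak within the domain. Most other peaks were narrower than the list median: the median width at CDK6 was 512 bp, against 645 bp in the list, and 16 of 47 exceeded the list median. Wide peaks were present too, with 11 of 47 above the list's upper quartile of 1024 bp.

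All 3 SMA4 peaks of the 4 windows were at CDK6. The first, from 92268912 to 92269187 (276 bp), lay wholly in a RUNX1 peak of 1832 bp from 92268302 to 92270133, in the group farthest from the start. The second, from 92442828 to 92442995 (168 bp), lay wholly in the RUNX1 peak of 2067 bp near the start. The third, from 92466820 to 92466980 (161 bp), lay in the H3K4me3 domain, 170 bp from the nearest RUNX1 peak. Thus 2 of 3 overlapped RUNX1 (against 65.9% of the SMA4 list) and 1 of 3 overlapped H3K4me3 (against 21.8%). A count of 3 peaks is too small to set against the list's shares. The RUNX1 peaks that carried SMA4 were 2 of 47 (against 2.56% of the RUNX1 list). Both (1832 and 2067 bp) were wider than the RUNX1 list median of 645 bp. The H3K4me3 peaks that carried SMA4 were 1 of 3 (against 2.39% of the H3K4me3 list). That peak is the widest of its list, and 9 of the 100 widest H3K4me3 peaks, this one included, carried SMA4. The list shares are not matched for width, so no contrast is drawn from them. Among 350 kb tiles, 1.04% held at least 3 SMA4 peaks. Per the file headers, SMA4 differs from the other lists in batch and in the tool named for the peaks as well as in antibody, and these cannot be told apart. The SMA4 header also names a fragment length of 120 bp, and its effect on the peaks was not tested.

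**Figure D3:**
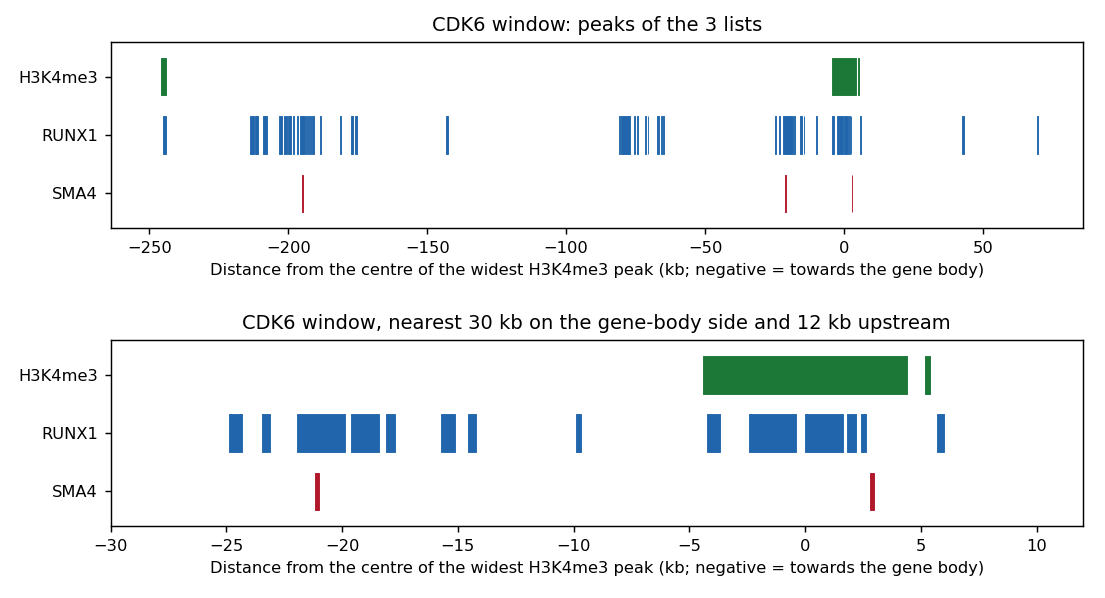
Peaks of the 3 lists (bars, to scale with a thin outline) in the CDK6 window, by distance in kb from the centre of the widest H3K4me3 peak, with the whole window above and the stretch around the start below. Most RUNX1 peaks fall in 3 groups on the gene-body side and over the start, and the 3 SMA4 peaks lie in the outer 2 of these groups.

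CCND3 had fewer RUNX1 peaks than CDK6, of larger median width, and H3K4me3 in several places. The window of 160 kb held 17 RUNX1 peaks (10.6 per 100 kb) and 9 H3K4me3 peaks (5.63 per 100 kb), against 1.21 and 0.435 per 100 kb in the lists. All 9 H3K4me3 peaks overlapped RUNX1, against 88.1% of the H3K4me3 list (95% Wilson interval for 9 of 9, 70.1 to 100%). Of the 17 RUNX1 peaks, 9 overlapped H3K4me3 (52.9%, 95% Wilson interval 31.0 to 73.8%), against 32.2% of the RUNX1 list. The median width of all 17 was 1235 bp, against 645 bp in the list, and 15 of 17 exceeded the list median. No SMA4 peak was called in this window, and the SMA4 list held 0.0486 peaks per 100 kb.

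The widest H3K4me3 peak at CCND3 ran from 41907120 to 41910214 on chromosome 6 (3095 bp, rank 249 of 13181). It overlapped RUNX1 peaks from 41906814 to 41908048 (1235 bp) and from 41908277 to 41910069 (1793 bp), the widest RUNX1 peak of the window. Just below it lay narrow H3K4me3 peaks of 179, 238 and 344 bp, from 41903991 to 41904169, from 41906053 to 41906290 and from 41906585 to 41906928. They overlapped RUNX1 peaks of 1669 bp, from 41902937 to 41904605, and of 1170 bp, from 41905442 to 41906611, and the 344 bp peak also met the 1235 bp RUNX1 peak. At this cluster 4 RUNX1 peaks therefore overlapped 4 H3K4me3 peaks over 7.13 kb, though not as separate pairs, and 82.3% of the span was in RUNX1 peaks. The 1669 and 1170 bp RUNX1 peaks lay mostly outside H3K4me3, with 10.7% and 22.6% of their bases under it.

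A second cluster in the CCND3 window lay at higher coordinates. It held H3K4me3 peaks from 42013475 to 42013801 (327 bp), from 42015641 to 42016416 (776 bp) and from 42017829 to 42018816 (988 bp). RUNX1 peaks overlapped each of them, from 42012899 to 42014281 (1383 bp), from 42015973 to 42016970 (998 bp) and from 42017813 to 42019162 (1350 bp). The uppermost H3K4me3 peak was 107.6 kb from the edge of the widest one, and starts 1 and 2 of CCND3 are 106.9 kb apart in GRCh38.p14. These distances are from different builds and no start was placed on a peak.

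Between these clusters RUNX1 peaks also occurred with little H3K4me3. A group of 5 RUNX1 peaks spanned 15.5 kb from 41975389 to 41990864, with 1 H3K4me3 peak of 410 bp, from 41977869 to 41978278, inside a RUNX1 peak of 1489 bp, from 41977285 to 41978773. The RUNX1 peak from 42006487 to 42008069 (1583 bp), the third widest of the window, overlapped no H3K4me3 peak. From 41910070 to 41975388, next to the widest H3K4me3 peak, 65.3 kb held no RUNX1 peak. The remaining H3K4me3 peak, from 41888218 to 41890324 (2107 bp), overlapped a RUNX1 peak from 41888483 to 41889749 (1267 bp) near the lower end of the window. BYSL and MED20 are the nearest protein-coding genes on that side in the RefSeq table, and to which gene this peak belongs was not tested.

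**Figure D4:**
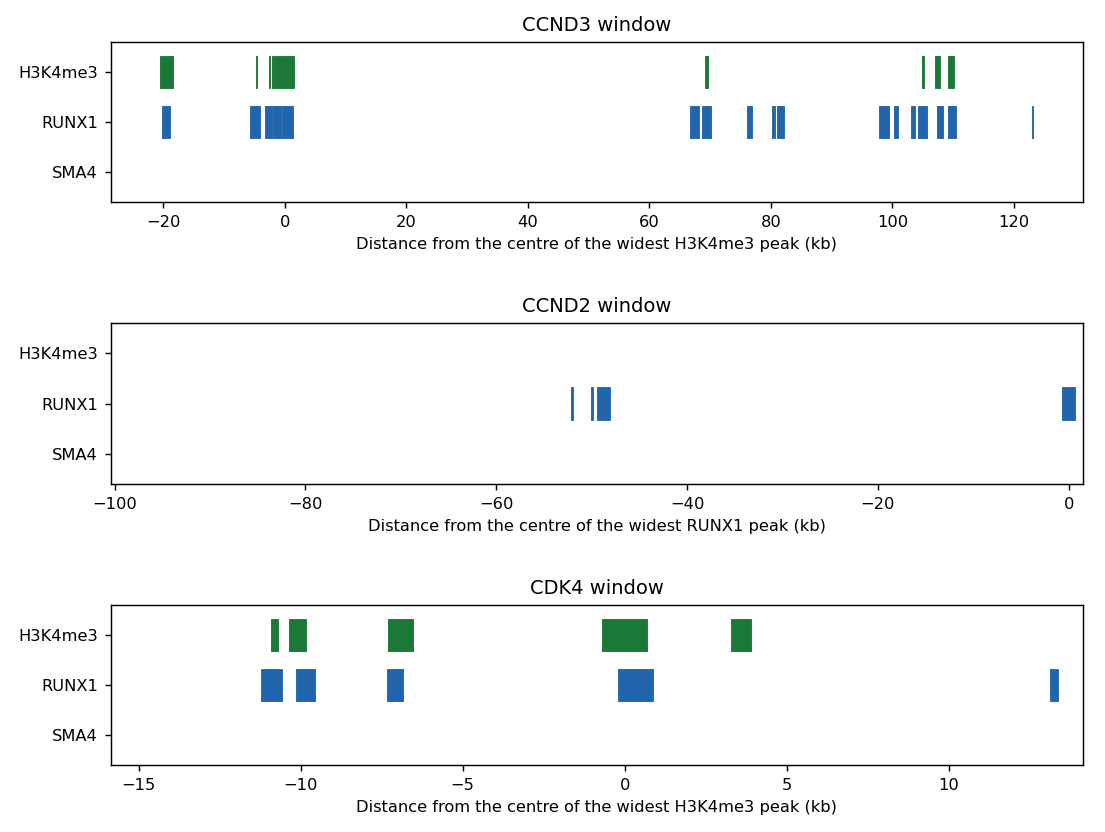
Peaks of the 3 lists (bars, to scale with a thin outline) in the CCND3, CCND2 and CDK4 windows, by distance in kb from the centre of the widest H3K4me3 peak, or for CCND2 of the widest RUNX1 peak. CCND3 shows overlapping RUNX1 and H3K4me3 peaks towards both ends, CCND2 shows 4 RUNX1 peaks and no H3K4me3 peak, and none of the 3 windows has an SMA4 peak.

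No H3K4me3 peak and no SMA4 peak was called in the 100 kb of the CCND2 window. Of 30337 tiles of 100 kb on a fixed grid, 7187 held an H3K4me3 peak, and the SMA4 list had 0.0486 peaks per 100 kb. The tiles were not chosen to hold a gene, so they do not show how often a window at a gene lacks H3K4me3. The window held 4 RUNX1 peaks (4 per 100 kb, against 1.21 in the list), and 11.3% of 100 kb tiles held at least as many. Of these, 3 lay together, from 4378273 to 4378513 (241 bp), from 4380380 to 4380600 (221 bp, the list minimum) and from 4380995 to 4382359 (1365 bp), and overlapped neither other list. The fourth, from 4429735 to 4431113 (1379 bp), crossed the upper edge of the window by 1113 bp. It overlapped an H3K4me3 peak from 4430014 to 4430793 (780 bp) that began 14 bp beyond the edge and so is no member. TIGAR is the nearest protein-coding gene on that side in the RefSeq table, and to which gene these 2 peaks belong was not tested. The wide RUNX1 peak at 4380995 was 47.7 kb from that H3K4me3 peak. A missing peak says that none was called in this library, whose depth is unknown, and not that the mark is absent.

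The CDK4 window, the shortest at 30 kb, held mostly narrow H3K4me3 peaks, with a median width of 615 bp against 938 bp in the list and 1 of 5 above that median. H3K4me3 peaks at CCND3 were narrower still, with a median of 410 bp. The CDK4 window held 5 H3K4me3 and 5 RUNX1 peaks, and 4 of each overlapped the other (80.0%, 95% Wilson interval 37.6 to 96.4%), against 88.1% and 32.2% of the lists. The widest H3K4me3 peak, from 58145162 to 58146565 on chromosome 12 (1404 bp), shared 912 bp with the widest RUNX1 peak, from 58145654 to 58146746 (1093 bp). Both are of ordinary width, with 70.2% of H3K4me3 peaks and 77.8% of RUNX1 peaks narrower. The next pairs were an H3K4me3 peak from 58138575 to 58139345 (771 bp) with a RUNX1 peak from 58138524 to 58139011 (488 bp), and one from 58135508 to 58136028 (521 bp) with a RUNX1 peak from 58135737 to 58136317 (581 bp). The last was a 204 bp H3K4me3 peak from 58134963 to 58135166 inside a RUNX1 peak from 58134630 to 58135277 (648 bp). The H3K4me3 peak from 58149142 to 58149756 (615 bp) had no RUNX1 peak, and the RUNX1 peak from 58159000 to 58159224 (225 bp) had no H3K4me3. TSPAN31, AGAP2, MARCHF9 and CYP27B1 are the nearest protein-coding neighbours of CDK4 in the RefSeq table, and these peaks were not divided among them.

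Across the 4 windows the overlap of the lists was close to that of the whole lists, while the values of the single windows varied. In all, 15 of 17 H3K4me3 peaks overlapped RUNX1 (88.2%, 95% Wilson interval 65.7 to 96.7%, against 88.1% in the list), and 20 of 73 RUNX1 peaks overlapped H3K4me3 (27.4%, 18.5 to 38.6%, against 32.2%). Counted in bases, 17.5% of RUNX1 peak sequence at CDK6 lay under H3K4me3, 34.8% at CCND3, 0% at CCND2 within the window and 60.8% at CDK4, against 34.2% in the list. The count of 20 includes the CCND2 peak at the window's edge, whose H3K4me3 partner is no member. The reverse share was 53.8% at CDK6, 79.4% at CCND3 and 52.5% at CDK4, against 71.4% in the list. The windows differ in length and in how much sequence outside promoters they take in, and differences between genes were not tested, since each target had 1 library.

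**Figure D5:**
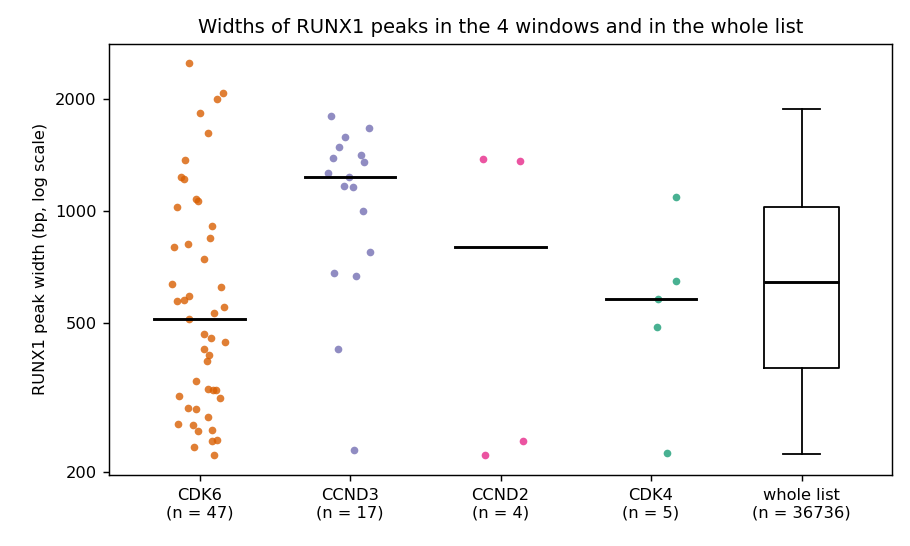
Width of each RUNX1 peak (points, log scale, bp) in the 4 windows with the median as a line, beside the whole RUNX1 list as a box of quartiles with whiskers at the 5th and 95th percentiles. CCND3 peaks have a median of 1235 bp and CDK6 peaks of 512 bp, and the list median is 645 bp.

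The counts at CDK4 depend on where its window ends. With 10 kb taken off each end, 2 of its 5 H3K4me3 and 1 of its 5 RUNX1 peaks remained. At CDK6 47 of 47 RUNX1 peaks remained, at CCND3 15 of 17 and at CCND2 3 of 4. The same 10 kb is a far larger part of the 30 kb CDK4 window than of the 350 kb CDK6 window. The losses therefore follow window length and do not compare the genes. The nearest peaks outside the CDK6 window on the lower side lay 41.3 kb away for H3K4me3 (92156761 to 92158688) and 41.6 kb away for RUNX1 (92156871 to 92158443), and on the upper side the nearest RUNX1 peak was 104.6 kb away. At CCND3 the nearest RUNX1 peaks outside were 15.9 kb below and 32.1 kb above. At CDK4 an H3K4me3 peak of 1489 bp and a RUNX1 peak of 1298 bp lay 5.27 and 5.29 kb above the window. At CCND2 the H3K4me3 peak 14 bp beyond the edge was the nearest case.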

How the data were processed

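CUT&RUN libraries of MOLT-4 cells were analysed from 3 peak lists deposited by the authors, 1 each for H3K4me3, RUNX1 and SMA4. The lists give chromosome, start, end and name but no score, p-value or read count, so depth is unknown. Per the file headers, H3K4me3 and RUNX1 peaks came from MACS2 (batch 2) and SMA4 peaks from cutruntools at a q threshold of 0.01 (batch 3). A fragment length of 120 bp is named in the SMA4 header. Tools and build named in the submitters' processing notes are MACS2, SEACR and hg19. The sources used here give neither the aligner nor the control of each library.

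Peaks on chromosomes 1 to 22 and X were kept (13181, 36736 and 1475 of H3K4me3, RUNX1 and SMA4) and written 1-based. Overlap meant at least 1 bp. Densities used the 3033 Mb spanned by the lists, with the highest peak end as each chromosome's length. Shares have 95% Wilson intervals (SciPy 1.17.1, Python 3.11.15). Overlap and joining steps were tested on simulated intervals. With 1 library per target no test was run.

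Genes, windows and lists were chosen with earlier results of these data known. Named were all H3K4me3 and SMA4 peaks, the 3 widest RUNX1 peaks per window and RUNX1 peaks overlapping another list. Alternatives changed the windows' edges, the overlap rule, the joining distance and the handling of the narrowest and of touching peaks. Promoters came from RefSeq (GRCh38.p14). The planned count over other cell cycle genes needed an hg19 annotation and was not made.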

Additional observations from a re-analysis of the deposited data

How the results depend on the processing

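Counts and shares were recomputed under 29 alternatives over 7 results, and 28 stayed within 1.5 times the count or within the interval of the share. That number is a weak check, because some alternatives could not change a value. Merging peaks within 100 bp joined none, as the smallest gap in a window was 102 bp. The interval for 2 of 3 SMA4 peaks (20.8 to 93.9%) admits most values. The RUNX1 peaks in the windows numbered between 66 (windows narrowed by 10 kb at each end) and 74 (windows widened by 10 kb), against 73, and the H3K4me3 peaks between 14 and 19 under the same changes, against 17. The CDK4 window, only 30 kb long, lost 3 of 5 H3K4me3 and 4 of 5 RUNX1 peaks when narrowed. The SMA4 count was 3 under each alternative run, but no member was at the list minimum of 141 bp or within 10 kb of a window edge. With overlap of peaks within 1 kb, 3 of 3 SMA4 peaks (100%) met RUNX1, against 66.7%, since the third lies 170 bp from a RUNX1 peak. The share of H3K4me3 peaks with RUNX1 ran from 76.5% at midpoints to 94.1% within 1 kb, and that of RUNX1 peaks with H3K4me3 from 21.9% at midpoints to 28.8% within 1 kb. The richest CDK6 region held 11304 bp in RUNX1 peaks when peaks up to 5 kb apart were joined, and 13246 bp at 10 and at 20 kb. No paired analysis was possible because each target has 1 library. Read depth, fold enrichment and IgG peaks were not used here, so how strong a peak is, and whether an uncalled site is empty, cannot be read from these lists.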

Other observations

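The SMA4 list held its nearest peak below the CDK6 window at 92157901 to 92158045 on chromosome 7 (145 bp), 41.96 kb from the edge. It lay within the H3K4me3 peak of 1928 bp and the RUNX1 peak of 1573 bp found there, so all 3 lists met at that place. Around the other genes the nearest SMA4 peaks lay outside the windows. The nearest to the CCND3 window were 665.8 kb below and 818.6 kb above it, the nearest to the CCND2 window 1681 kb below and 5464 kb above, and the nearest to the CDK4 window 3528 kb below and 4494 kb above. Over the whole list the median gap between neighbouring SMA4 peaks was 666.4 kb. That gap runs from peak to peak, so it is unlike a distance from a window to a peak. The list held only 0.0486 SMA4 peaks per 100 kb, and no contrast with CDK6 is drawn from these distances.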
